A study of Mus musculus with 9 samples.

Results

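The genes described here encode the proteasome. They were taken as the rows of the deposited expression table whose symbol begins Psma, Psmb, Psmc, Psmd, Psme or Psmg followed directly by a digit, which gave 48 of 20512 named genes. RNA was sequenced in 9 libraries of whole tongue, from C57/Bl6 mice crossed with FVB/NJ and aged about 6 weeks. The Bmi1 transgene group (4 libraries) carried K14-rtTA together with TREFLBmi-1, and the control group (5 libraries) carried K14-rtTA without TREFLBmi-1. For 1 week both groups were given drinking water with 2 mg/mL doxycycline. The keratin 14 promoter directs the doxycycline-dependent activator rtTA to basal epithelial cells, whereas the tongue samples also held muscle, stroma, vessels and blood cells. Whether every library stems from a separate animal is not stated, and the p-values below therefore reflect library-to-library spread, some of which may be technical. Bmi1 itself, a subunit of Polycomb repressive complex 1, stood at 12.49, 12.05, 14.87 and 11.94 in the transgene libraries, against 10.74, 10.21, 10.24, 10.45 and 10.34 in the control libraries, on the deposited log2 scale of normalised expression. Its groups did not overlap, and transgene replicate 3 had the most Bmi1 RNA. The difference was 2.44 ± 0.595 (SE). In the limma fits described further on, its adjusted p was 0.0672 with stratum terms and 0.00719 with group alone. Bmi1 was thus not called with stratum terms.

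The proteasome degrades proteins that carry ubiquitin chains. Its 20S core is a barrel of stacked alpha and beta rings, in which Psmb5, Psmb6 and Psmb7 hold the proteolytic sites. Interferon-induced immunosubunits can replace these and favour peptides for MHC class I presentation. The 19S cap binds ubiquitin chains, removes them and unfolds the substrate with a ring of ATPases, while other activators open the core without needing ubiquitin. Subunit genes are transcribed widely and largely in step, and Nfe2l1 (Nrf1) raises them through antioxidant response elements when the proteasome is inhibited.

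The promoters of 4 members are shown, since subunit genes are known to be regulated together. Psmd8 was the member that passed the test, and Psme4 was the one member whose transgene libraries all lay above the control libraries without passing it. Psmb5 and Psmb6, which did not pass it either, are catalytic subunits whose promoters held the antioxidant response element core. Each run is the 250 bases before the RefSeq transcription start, 5′ to 3′ on the gene's strand, in build GRCm38.p6. Capitals mark matches to TGACNNNGC.
Psmd8 (chr7:29180674-29180923, minus strand): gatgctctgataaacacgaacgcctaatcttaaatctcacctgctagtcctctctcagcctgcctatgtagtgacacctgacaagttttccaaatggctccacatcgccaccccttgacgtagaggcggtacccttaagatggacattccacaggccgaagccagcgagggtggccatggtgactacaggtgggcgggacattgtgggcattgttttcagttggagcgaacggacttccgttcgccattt
Psme4 (chr11:30771525-30771774, plus strand): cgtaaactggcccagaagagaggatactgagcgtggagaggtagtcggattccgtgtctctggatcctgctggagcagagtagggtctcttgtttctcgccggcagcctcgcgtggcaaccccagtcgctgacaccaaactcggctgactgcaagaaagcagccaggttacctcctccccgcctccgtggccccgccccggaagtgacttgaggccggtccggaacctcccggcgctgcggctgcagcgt
Psmb5 (chr14:54617996-54618245, minus strand): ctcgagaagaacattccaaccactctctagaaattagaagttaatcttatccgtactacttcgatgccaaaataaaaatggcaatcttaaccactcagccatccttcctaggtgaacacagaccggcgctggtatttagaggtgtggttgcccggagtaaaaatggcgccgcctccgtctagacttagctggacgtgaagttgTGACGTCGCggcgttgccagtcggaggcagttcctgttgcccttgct
Psmb6 (chr11:70525107-70525356, plus strand): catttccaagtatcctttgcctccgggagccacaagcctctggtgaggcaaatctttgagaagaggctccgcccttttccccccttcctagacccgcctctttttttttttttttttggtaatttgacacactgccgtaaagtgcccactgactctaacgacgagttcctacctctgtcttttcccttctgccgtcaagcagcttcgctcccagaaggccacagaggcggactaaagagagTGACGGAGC
The match in Psmb5 began 47 bases before the start and that in Psmb6 began 9 bases before it. Over both strands, TGACNNNGC was found in the windows of 5 of the 40 members with a listed promoter (12.5%), against 10.2% of all 32851 promoters. The 5 were Psmb5, Psmb6, Psmc6, Psmd9 and Psmd12. The CCAAT box was found in 15 of the 40 (37.5%), Psmc3ip among them, and in 33.8% of all promoters. The interferon response element, searched as GAAANN followed directly by GAAA, was found in 3 of the 40 (7.5%), namely Psmb3, Psmd4 and Psmd9, against 2.98% of all promoters. Matches to each motif were counted on their own, also where they overlapped another. A member gene counted if any of its windows matched, while the share over all promoters is per window. By window, the members held the 3 motifs in 5, 15 and 3 of 43, in the order given. These letters describe the windows and do not show binding.

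Of the 48 genes, 46 had a mean log2 value of at least 3 and were among the 14490 genes tested above this floor. The remaining 2 encode 20S subunits that belong to other organs. Psma8, the testis alpha subunit, lay between 1.37 and 1.42 over all 9 libraries, and Psmb11, the thymus beta subunit, between 2.81 and 2.92. Psmc3ip matched the prefix but encodes a cofactor of meiotic recombination. It is kept apart from the role groups but is counted in the totals over all members, including those of the promoters.

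Before the results, a property of the deposited values has to be stated. They lack 2 of the 7 directions in which 9 libraries of 2 groups can vary within groups. The only division of the libraries into 3 sets that accounts for this, out of 3003, put transgene 1 with control 1, transgene 2, 3 and 4 with control 2 and 3, and control 4 with control 5. These sets are called strata here, and the labels do not say what they are. Tests were made with limma and stratum terms, with Benjamini-Hochberg adjustment over all tested genes, and a gene was called at an adjusted p under 0.05. A fit with group as the only term, which counts residual degrees of freedom that the values do not hold, is given beside it. Control 4 and control 5 mirror each other about the control mean, so that leaving out either changed no difference given here. Likewise, transgene 1 and control 1 deviate from their own group means by equal amounts in opposite directions. These deviations are tied and do not count as separate observations. The difference in the pair of transgene 1 and control 1 and that in the largest stratum are tied as well. They depart from the difference over all libraries in opposite directions and in a fixed proportion.

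Most genes of the complex had a slightly lower mean in transgene tongues, by about as much as all genes of their transcript length. The mean was lower in 42 of 46 genes (41 of 45 without Psmc3ip) and higher in the other 4. Of all tested genes, 49.0% had a lower mean and 51.0% a higher one. The median difference over the 46 was -0.097 in log2 (-0.092 without Psmc3ip), against 0.003 over all tested genes. With a trend on transcript length taken out of every library, as described further on, the median was -0.001, with 24 members below the trend and 22 above it. With stratum terms 1 member, Psmd8, was called lower and none was called higher, against 1.15% of all tested genes called lower and 0.511% called higher. At an unadjusted p under 0.05, 17 members were lower and 1 was higher, where 11.8% of all tested genes were lower and 11.2% higher. With group as the only term 20 members were called lower (12.7% of all tested genes) and 1 higher (11.7% of all). The count with stratum terms depended on the libraries kept. Without transgene 1 (6.54% of all tested genes) or without control 1 (6.57% of all), 12 members were called lower, and none without any other library. When either of this pair is left out, a stratum term absorbs the other. Both fits therefore give the differences of the largest stratum and are not separate checks. In the largest stratum alone, of 3 transgene and 2 control libraries, 4 members were called lower (2.76% of all) and none higher (2.3% of all). In 21 members every transgene library lay below every control library, against 11.6% of all tested genes, and in 1 member every transgene library lay above, against 9.76%.

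**Figure D1:**
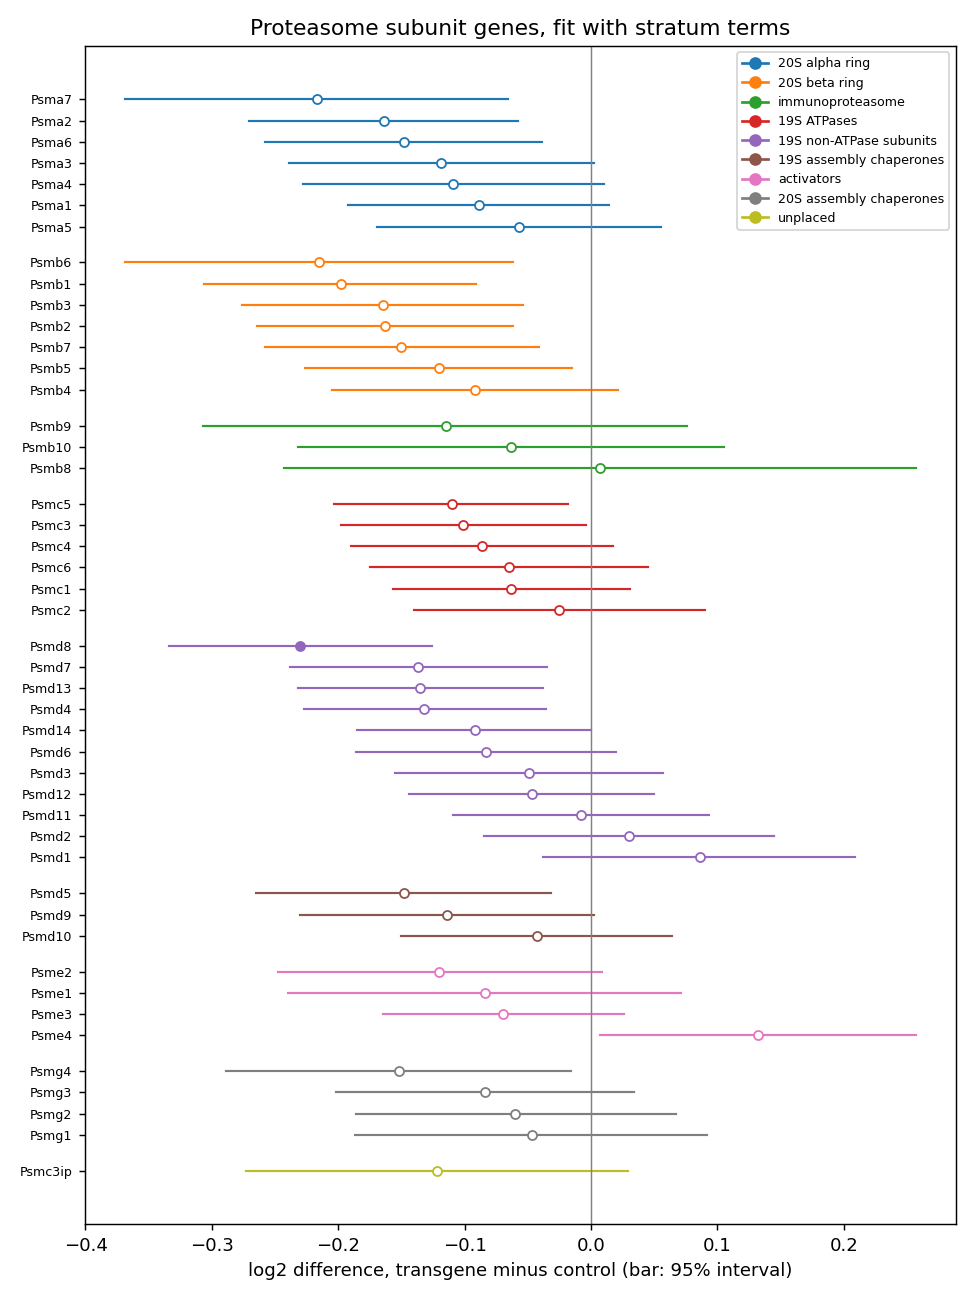
Difference in log2 expression, transgene minus control, for the 46 tested genes in rows by role (circle, with its 95% interval from the limma fit with stratum terms). The filled circle is Psmd8, the member called at an adjusted p under 0.05; 42 circles lie left of 0 and Psme4 lies farthest to the right at 0.13.

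The alpha ring forms the outer gate of the barrel. All 7 of its genes had a lower mean in transgene tongues, between -0.057 and -0.22 with a median of -0.12, and none was called with stratum terms. Group as the only term called Psma2, Psma3, Psma6 and Psma7 lower, where it called 12.7% of all tested genes lower. Psma2 had the smallest p of the ring, at 11.47, 11.40, 11.43 and 11.36 in transgene libraries, against 11.52, 11.62, 11.60, 11.55 and 11.61 in control libraries. Its groups stood apart by a narrow margin. The difference was -0.16 ± 0.048 (SE), with an adjusted p of 0.0939 with stratum terms and 0.00669 with group alone. Psma5 had the largest p of the ring, at 10.86, 10.80, 10.83 and 10.73 in transgene libraries, against 10.80, 10.90, 10.88, 10.83 and 10.89 in control libraries. The groups overlapped, and the difference of -0.057 ± 0.050 (SE) had an adjusted p of 0.523 (limma).

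In the core genes the strata gave different sizes of difference, which was not tested. As said above, the stratum differences are tied, so they are not separate observations of a varying difference. The alpha ring's median was 0.021 in the single pair of transgene 1 and control 1, and -0.19 in the stratum of 3 transgene and 2 control libraries. The beta ring's was -0.052 in the pair and -0.19 in the larger stratum, and that of the core chaperones was 0.031 and -0.12. Psma7, whose difference of -0.22 was the most negative of the ring, had 0.021 in the pair and -0.32 in the larger stratum. It stood at 11.55, 11.39, 11.46 and 11.34 in transgene libraries, against 11.53, 11.76, 11.66, 11.66 and 11.65 in control libraries. The first library of each group nearly coincided, though their deviations from the group means are tied, as said above. The other transgene libraries lay below all controls. The adjusted p was 0.108 with stratum terms and 0.0137 with group alone.

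The beta ring carries the proteolytic sites. All 7 constitutive genes had a lower mean, between -0.092 and -0.22, and the median of -0.16 was the most negative of the role groups. None was called with stratum terms, and 6 had an unadjusted p under 0.05, where 11.8% of all tested genes were lower at that level. The same 6 did not overlap between groups, where 11.6% of all tested genes were lower without overlap. Group as the only term called these, namely Psmb1, Psmb2, Psmb3, Psmb5, Psmb6 and Psmb7, and 12.7% of all tested genes, lower.

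The catalytic subunits are given in full. Psmb6, the caspase-like subunit, stood at 11.76, 11.58, 11.67 and 11.60 in transgene libraries, against 11.76, 12.01, 11.83, 11.86 and 11.88 in control libraries. The groups met at their edge, with transgene 1 and control 1, whose deviations are tied, equal to 2 decimals. The difference was -0.003 in that pair and -0.30 in the larger stratum. The difference was -0.22 ± 0.069 (SE, adjusted p = 0.113 with stratum terms and 0.0152 with group alone, limma). Psmb7, the trypsin-like subunit, stood at 12.04, 11.97, 11.99 and 11.94 in transgene libraries, against 12.08, 12.19, 12.13, 12.11 and 12.16 in control libraries. Every transgene library was below every control, by a small margin. The difference was -0.15 ± 0.048 (SE, adjusted p = 0.117 with stratum terms and 0.0103 with group alone, limma). Psmb5, the chymotrypsin-like subunit and the main target of bortezomib, stood at 11.07, 10.99, 11.07 and 11.01 in transgene libraries, against 11.12, 11.19, 11.15, 11.11 and 11.20 in control libraries. Again the groups were apart but close. The difference was -0.12 ± 0.047 (SE, adjusted p = 0.172 with stratum terms and 0.0218 with group alone, limma). Processed pseudogenes of these 3 genes are annotated, so reads may be shared with them.

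Among the non-catalytic beta subunits, Psmb1 had the smallest p. It stood at 11.79, 11.71, 11.73 and 11.68 in transgene libraries, against 11.86, 11.97, 11.94, 11.91 and 11.94 in control libraries. All transgene libraries were below all controls. The difference was -0.20 ± 0.048 (SE), with an adjusted p of 0.0662 with stratum terms and 0.00334 with group alone. The two-sided permutation p, over every split, was 0.00794 over all libraries and 0.05 when libraries were permuted within strata, each the smallest possible. Because the deposited values tie libraries within strata, the libraries are not freely exchangeable. The permutation p-values here and below are therefore not exact for these values. They were also made only for genes whose groups did not overlap, where the observed split is always the most extreme in its direction. They hence add no separate support. Psmb4, with the largest p of the ring, stood at 11.92, 11.84, 11.89 and 11.78 in transgene libraries, against 11.89, 11.98, 11.98, 11.93 and 11.96 in control libraries. Its groups overlapped through transgene 1, and the difference of -0.092 ± 0.051 (SE) had an adjusted p of 0.302 (limma).

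**Figure D2:**
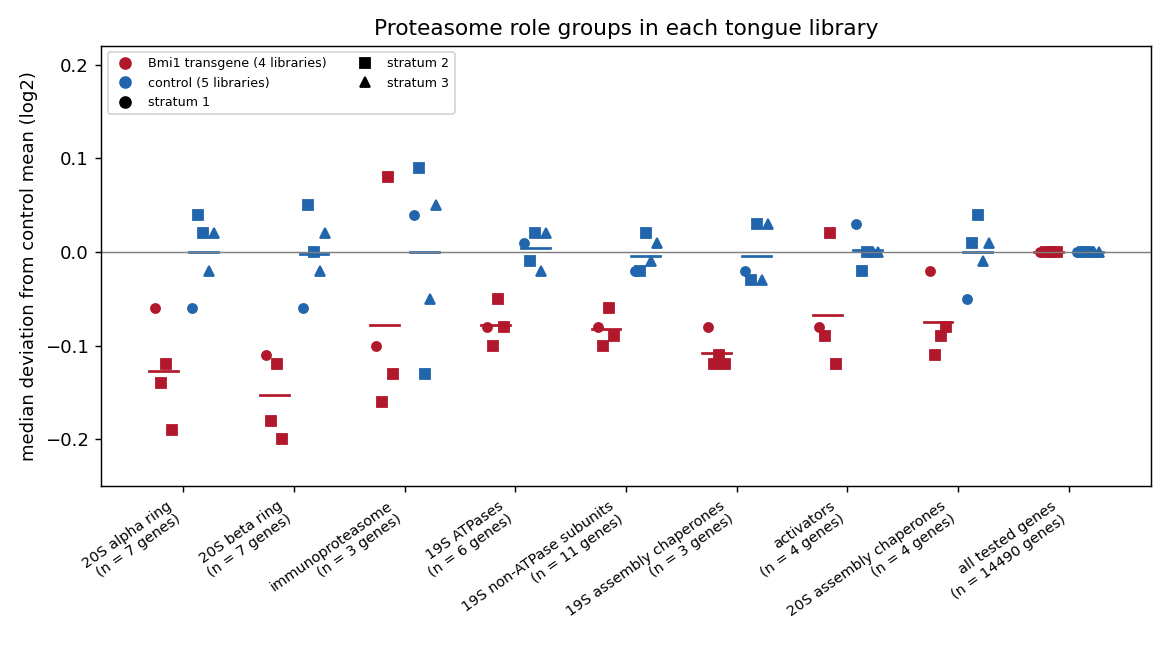
For each library, the median over the genes of a role group of the deviation from the control mean, in log2 (transgene in red, left; control in blue, right; marker shape gives the stratum; bars are group means). Transgene libraries lie at -0.06 to -0.20 for the alpha and beta rings and -0.05 to -0.10 for the cap groups, the immunosubunits overlap with transgene replicate 3 at 0.08, and all tested genes lie at 0.

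For all 3 immunosubunit genes the transgene and control libraries overlapped, and none was called in either fit. Psmb8, the immune counterpart of Psmb5, stood at 7.75, 7.63, 8.08 and 7.73 in transgene libraries, against 7.84, 7.92, 7.61, 7.74 and 7.84 in control libraries. Transgene 3 was the highest of the 9. The difference was 0.007, with a 95% interval of -0.24 to 0.26 and an adjusted p of 0.978 (limma). Psmb9, the counterpart of Psmb6, stood at 6.60, 6.54, 6.83 and 6.58 in transgene libraries, against 6.79, 6.82, 6.65, 6.65 and 6.85 in control libraries. Transgene 3 again stood among the high controls. The difference was -0.12, with an interval of -0.31 to 0.076 and an adjusted p of 0.445 (limma). Psmb10, the counterpart of Psmb7, stood at 8.56, 8.56, 8.74 and 8.53 in transgene libraries, against 8.70, 8.76, 8.53, 8.71 and 8.62 in control libraries. Here too transgene 3 stood apart from its group. The difference was -0.063, with an interval of -0.23 to 0.11 and an adjusted p of 0.645 (limma). Whether immunosubunits and constitutive subunits differ in their response was not tested, and these intervals hold the differences of Psmb5, Psmb6 and Psmb7.

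Without transgene 3 the differences were -0.088 for Psmb8, -0.18 for Psmb9 and -0.11 for Psmb10, with adjusted p-values of 0.559, 0.185 and 0.374 (limma, stratum terms). Control libraries moved them as much: without control 3 the differences were -0.10, -0.18 and -0.14, and without control 2 they were 0.084, -0.074 and -0.008, none of them called. Of the class I antigen processing genes, Tap1, the peptide transporter encoded next to Psmb9, stood at 8.58, 8.42, 9.08 and 8.57 in transgene libraries, against 8.77, 8.76, 8.52, 8.74 and 8.63 in control libraries. The class I light chain gene B2m stood at 11.74, 11.66, 12.25 and 11.66 in transgene libraries, against 11.93, 11.93, 11.65, 11.91 and 11.76 in control libraries. In both genes transgene 3 was the highest of the 9 libraries, and the remaining transgene libraries lay near the lowest control. Over the 13 genes of the list the median deviation from the control mean was -0.09, -0.10, 0.29 and 0.01 in the transgene libraries, against 0.07, 0.06, -0.16, 0.01 and -0.01 in the control libraries. None of the 13 was called with stratum terms, 7 had a higher mean and 6 a lower one, and their median difference was 0.003. Transgene 3, high for these genes, also held the most Bmi1 RNA. It was also the highest of the 9 libraries for some endothelial and fibroblast markers, and the lowest for other fibroblast markers. In transgene 1, 2 and 4 Bmi1 stood at 12.49, 12.05 and 11.94, where the median deviations were -0.09, -0.10 and 0.01. A relation to the Bmi1 level would rest on 1 library and was not tested.

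**Figure D3:**
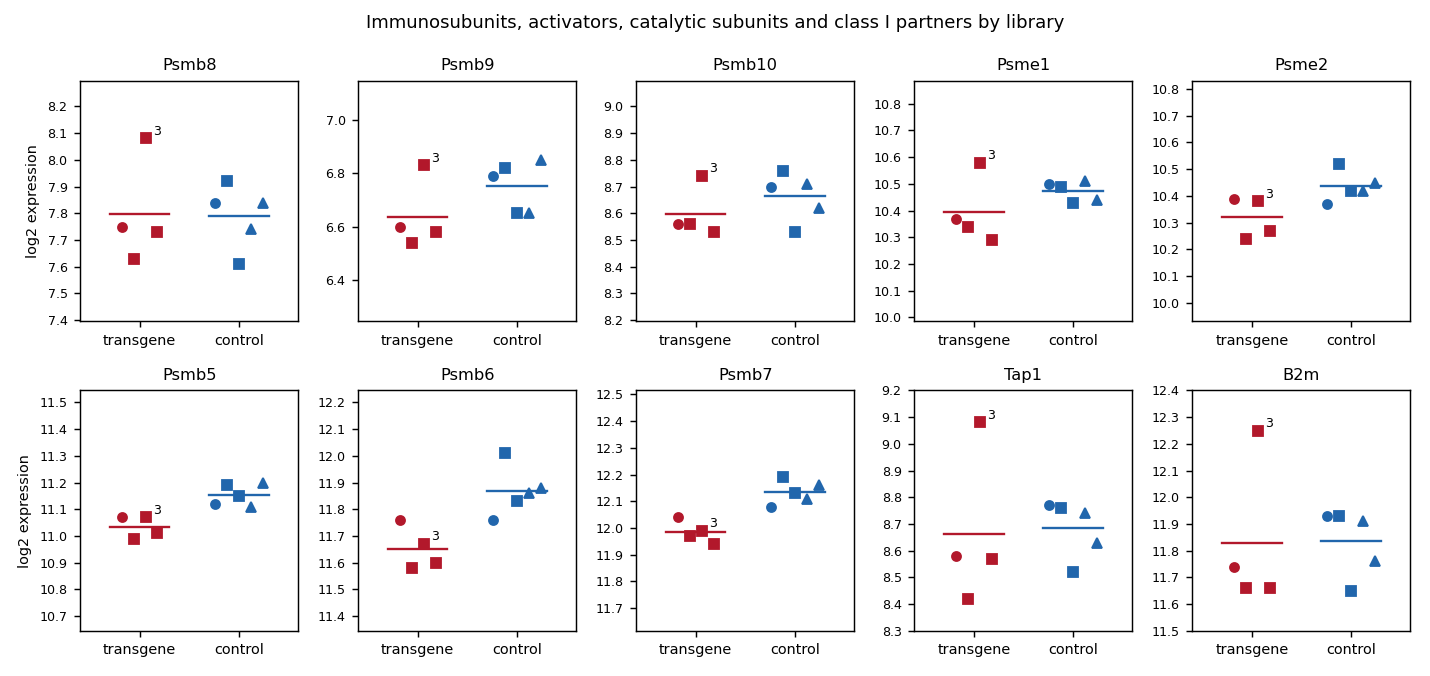
Log2 expression of immunosubunits, the Psme1 and Psme2 activator genes, catalytic subunits, Tap1 and B2m in each library (transgene red, left; control blue, right; bars are group means; marker shape gives the stratum: circle 1, square 2, triangle 3). The number 3 marks transgene replicate 3, which is the highest of the 9 libraries for Psmb8 (8.08), Tap1 (9.08) and B2m (12.25) and lies inside its own group for Psmb6 and Psmb7.

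Levels between genes were compared per kilobase of transcript, on a log2 scale. The constitutive catalytic genes averaged 11.98 (Psmb6), 11.77 (Psmb7) and 11.19 (Psmb5) per kilobase in transgene tongues, and 12.19, 11.92 and 11.31 in control tongues. Their immune counterparts averaged 6.20 (Psmb9), 8.21 (Psmb10) and 7.10 (Psmb8) per kilobase in transgene tongues, and 6.32, 8.27 and 7.09 in control tongues. In both groups each immunosubunit was far below the subunit it replaces, by more than the spread of any of these genes.

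Immunosubunits are highest in blood cells, and leukocyte markers were therefore set beside them. Of the 13 markers, 10 were tested, with a median difference of 0.006, and 1 was called higher. This was Csf1r, the macrophage growth factor receptor gene, at 10.66, 10.66, 10.63 and 10.71 in transgene libraries, against 10.41, 10.46, 10.33, 10.39 and 10.41 in control libraries. Every transgene library was above every control, and transgene 3 was the lowest of its group. The difference was 0.27 ± 0.048 (SE, adjusted p = 0.0418, limma), and the adjusted p was 0.0835 once a transcript length trend, described further on, was taken out. Leaving out transgene 2, transgene 3 or any of control 2 to control 5 ended the call of Csf1r (adjusted p 0.0623 to 0.174). The summed linear level of the 10 tested markers ran from 7594 to 8290 in transgene libraries and from 7216 to 8046 in control libraries. The T cell genes Cd3e and Cd3d and the B cell gene Cd79a averaged 1.69, 1.92 and 2.14 in transgene tongues, and 1.69, 1.90 and 2.14 in control tongues, below the floor. The part of leukocyte number in the immunosubunit levels was not tested, and in whole tissue fewer cells of a type and less RNA per cell cannot be told apart.

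The 6 ATPases, Psmc1 to Psmc6, form the unfolding ring of the 19S cap. All had a lower mean, between -0.025 and -0.11 with a median of -0.076. None was called with stratum terms, and group as the only term called Psmc3 and Psmc5 lower (12.7% of all tested genes). Psmc5 stood at 11.89, 11.87, 11.88 and 11.89 in transgene libraries, against 11.99, 11.97, 12.02, 11.96 and 12.02 in control libraries. Its groups were apart and each was tight. The difference was -0.11 ± 0.041 (SE, adjusted p = 0.155 with stratum terms and 0.0124 with group alone, limma). Psmc2 stood at 11.60, 11.64, 11.75 and 11.61 in transgene libraries, against 11.72, 11.63, 11.67, 11.70 and 11.65 in control libraries. The groups overlapped, and the difference of -0.025 ± 0.051 (SE) had an adjusted p of 0.803 (limma).

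The 11 non-ATPase subunits of the cap include a ubiquitin receptor, large scaffold subunits and subunits of the lid. Their median difference was -0.083, with 9 lower means and 2 higher ones. Psmd8, which encodes the lid subunit Rpn12, fell by 14.7% in transgene tongues and was the member called with stratum terms. It stood at 11.96, 11.88, 11.97 and 11.88 in transgene libraries, against 12.12, 12.20, 12.14, 12.15 and 12.15 in control libraries. Every transgene library was below every control, and the gap between the groups was wider than the spread within either. The difference was -0.23 ± 0.046 (SE, 95% interval -0.33 to -0.13), with an adjusted p of 0.0468 with stratum terms and 0.00148 with group alone (limma). The two-sided permutation p was 0.00794 over all libraries and 0.05 when libraries were permuted within strata, in each case the smallest possible, with the limits given for Psmb1. The difference was -0.16 in the pair of transgene 1 and control 1, and -0.26 in the largest stratum. The call was near its threshold: leaving out any one library other than transgene 1 or control 1 ended it, with adjusted p-values between 0.0644 and 0.18. Testing without a floor also ended it (0.0561), as did taking out the length trend, with a difference of -0.15 and an adjusted p of 0.125.

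Group as the only term called 4 further genes of the non-ATPase group lower, where it called 12.7% of all tested genes lower. These were Psmd4, a ubiquitin receptor, Psmd7 and Psmd14, which together form the deubiquitinating pair of the lid, and Psmd13, another lid subunit. Their differences were -0.13, -0.14, -0.092 and -0.14, and their adjusted p-values with stratum terms were 0.119, 0.124, 0.219 and 0.115. Psmd11 had the largest p of the cap, at 11.30, 11.34, 11.39 and 11.32 in transgene libraries, against 11.38, 11.30, 11.35, 11.35 and 11.34 in control libraries. The groups coincided, with a difference of -0.008 and a 95% interval of -0.11 to 0.093 (adjusted p = 0.931, limma). The large scaffold subunits Psmd1 and Psmd2 were the 2 with a higher mean, by 0.086 ± 0.055 and 0.030 ± 0.051 (SE). Their groups overlapped, and the adjusted p-values were 0.378 and 0.760 (limma).

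Assembly chaperones help to build the particle and leave before it is complete. The cap chaperone genes Psmd5, Psmd9 and Psmd10 had differences of -0.15, -0.11 and -0.043. None was called with stratum terms, and Psmd5 and Psmd9 were called lower with group alone (12.7% of all tested genes). Psmd5 stood at 9.55, 9.63, 9.66 and 9.65 in transgene libraries, against 9.84, 9.74, 9.73, 9.74 and 9.80 in control libraries. The groups were apart, and the difference of -0.15 ± 0.052 (SE) had an adjusted p of 0.138 (limma). Psmd10, also known as gankyrin, stood at 8.48, 8.45, 8.46 and 8.42 in transgene libraries, against 8.47, 8.49, 8.52, 8.48 and 8.51 in control libraries. These groups overlapped (adjusted p = 0.621, limma).

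The core chaperone genes Psmg1 to Psmg4 all had a lower mean, with a median of -0.072, and none was called with stratum terms. Psmg4 stood at 7.15, 7.0, 7.10 and 7.20 in transgene libraries, against 7.22, 7.26, 7.31, 7.30 and 7.23 in control libraries. The groups met closely, and the difference of -0.15 ± 0.061 (SE) had an adjusted p of 0.179 with stratum terms and 0.0288 with group alone (limma). Psmg1 stood at 8.28, 8.13, 8.18 and 8.17 in transgene libraries, against 8.15, 8.34, 8.23, 8.23 and 8.25 in control libraries. Transgene 1 lay above most controls and control 1 below most transgene libraries, which are tied deviations and not separate observations. The difference of -0.047 ± 0.062 (SE) had an adjusted p of 0.680 (limma). The unplaced gene Psmc3ip differed by -0.12 ± 0.068 (SE, adjusted p = 0.308, limma), with overlapping groups.

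Of the 4 activator genes 1 had a higher mean and 3 a lower one, with a median of -0.077. Psme4 encodes PA200, a large single-chain nuclear activator, and was the one member whose transgene libraries all lay above the controls. It stood at 12.80, 12.89, 12.81 and 12.83 in transgene libraries, against 12.73, 12.59, 12.78, 12.69 and 12.71 in control libraries. The gap at the edge was narrow, between transgene 1 and control 3. The difference was 0.13 ± 0.056 (SE, 95% interval 0.007 to 0.26), with an adjusted p of 0.198 with stratum terms and 0.0356 with group alone (limma). The two-sided permutation p was 0.0159 over all libraries and 0.05 within strata, where 0.05 is the smallest possible, with the limits given for Psmb1.

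The remaining activators encode the PA28 caps. Psme1 and Psme2, the interferon-induced alpha and beta subunits, had differences of -0.084 ± 0.070 and -0.12 ± 0.057 (SE), with adjusted p-values of 0.496 and 0.245 (limma). Psme1 stood at 10.37, 10.34, 10.58 and 10.29 in transgene libraries, against 10.50, 10.49, 10.43, 10.51 and 10.44 in control libraries. Transgene 3 was the highest of the 9, as in Psmb8, and without it the difference was -0.15 (adjusted p = 0.154). Psme2 stood at 10.39, 10.24, 10.38 and 10.27 in transgene libraries, against 10.37, 10.52, 10.42, 10.42 and 10.45 in control libraries. The groups overlapped through control 1, and the retrocopy Psme2b may share its reads. Psme3, the nuclear PA28 gamma gene, stood at 11.37, 11.42, 11.40 and 11.40 in transgene libraries, against 11.50, 11.42, 11.49, 11.47 and 11.47 in control libraries. The groups touched at control 2, and the difference of -0.070 ± 0.043 (SE) had an adjusted p of 0.354 (limma).

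The size of the difference followed transcript length, in the proteasome as in the whole table. Over all tested genes the loess trend of the difference ran from -0.22 at 500 bases to 0.21 at 16000 bases. Most subunit transcripts are short, with a median of 1408.5 bases over the 46 genes, against 3046 over all tested genes. Under 1200 bases, 15 of 15 members were lower, with a median of -0.12, where all 1275 tested genes of that length had a median of -0.14. From 1200 to under 2000 bases, 19 of 20 members were lower, with a median of -0.091, against -0.066 over 2508 genes. At 2000 bases and over, 8 of 11 members were lower, with a median of -0.065, against 0.03 over 10654 genes. Psme4, the highest of the complex, has the longest transcript at 6491 bases, where the trend stood at 0.11.

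Once the trend was taken out of every library, no member was called with stratum terms, where 0.0277% of all genes were called lower and 0.0416% higher, and at an unadjusted p under 0.05 the members counted 4 lower and none higher (7.9% and 7.91% of all). With group as the only term, Psmd5, Psmd8, Psmb1, Psma2 and Psmd13 were called lower, where 6.72% of all genes were, and no member was called higher, where 6.4% were. Of these, Psmd5 lay farthest from the trend, at -0.19 relative to it, with a transcript of 4397 bases. Of the 46, 5 lay more than 0.1 below the trend and none lay more than 0.1 above it. As a description over genes that share libraries, the correlation of log2 length with the difference was 0.52 (Pearson) and 0.41 (Spearman) over the 46 members, and 0.58 and 0.61 over 14437 genes. The source of the length trend was not tested.

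**Figure D4:**
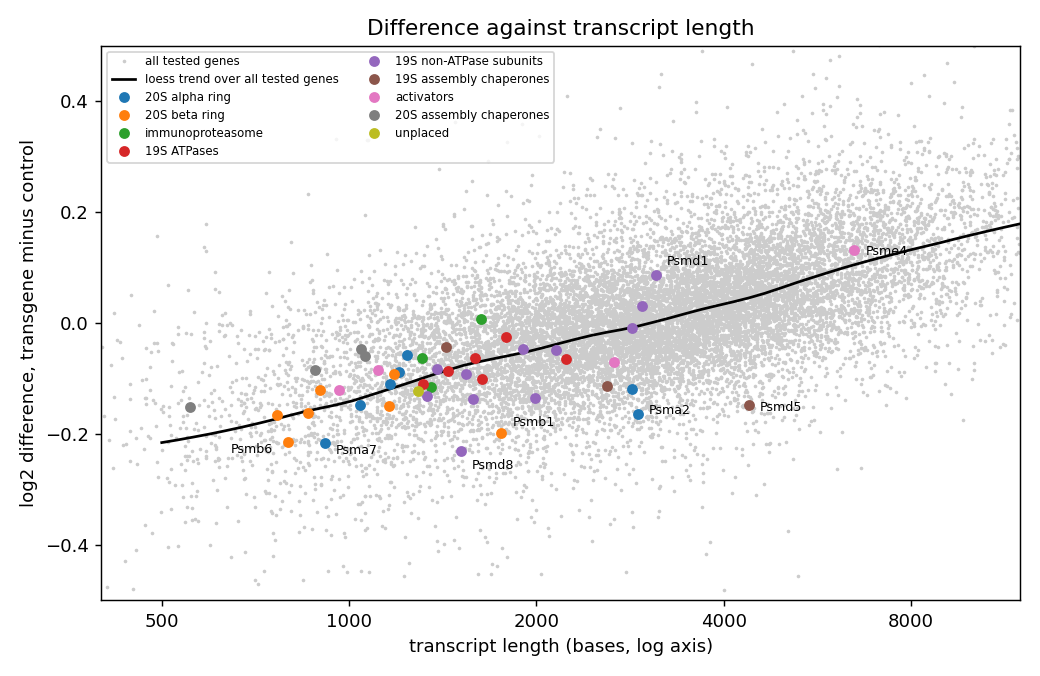
Difference in log2 expression, transgene minus control, against transcript length (log axis) for all tested genes (grey) and the proteasome genes (coloured by role), with the loess trend over all tested genes (line). Most members lie along the line, Psmd8, Psmb1, Psma2 and Psmd5 lie below it, and Psme4 lies close to it at 6491 bases; a few grey points lie beyond the axes.

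The authors' deposited table of changed genes held 2 of the 48. Psmd8 had a log2 fold change of -0.28 there (adjusted p = 0.001938, authors' deposited table) and Psmb1 one of -0.24 (adjusted p = 0.01652, authors' deposited table). That table listed 552 genes lower and 429 higher.

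Of 13 proteasome cofactors outside the naming rule, 12 were in the expression table, with a median difference of -0.036, 8 lower means and 4 higher ones, and none called with stratum terms. Group as the only term called 4 of them lower, namely Shfm1, Uchl5, Adrm1 and Pomp, and none higher. Of all tested genes it called 12.7% lower and 11.7% higher. Shfm1, a small subunit of the cap, differed by -0.24 ± 0.075 (SE, adjusted p = 0.110 with stratum terms, limma) and is listed as lower in the authors' deposited table. Uchl5, a deubiquitinase of the cap, differed by -0.22 ± 0.064 (SE, adjusted p = 0.0996, limma), and its receptor Adrm1 by -0.13 ± 0.042 (SE, adjusted p = 0.121, limma). Pomp, the maturation factor that joins the assembling rings of the core, stood at 11.09, 11.06, 11.07 and 10.92 in transgene libraries, against 11.17, 11.26, 11.22, 11.18 and 11.26 in control libraries. All transgene libraries were below the controls, and the difference of -0.18 ± 0.055 (SE) had an adjusted p of 0.102 with stratum terms and 0.00980 with group alone (limma). Usp14, a deubiquitinase that docks on the cap, had the opposite sign, at 10.66, 10.71, 10.71 and 10.70 in transgene libraries, against 10.65, 10.55, 10.63, 10.61 and 10.62 in control libraries. The groups were just apart (difference 0.083 ± 0.044 SE, adjusted p = 0.291, limma). Psmf1, the inhibitor PI31, differed by -0.006 ± 0.055 (SE, adjusted p = 0.961, limma).

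Of the 14 genes for ubiquitin and its delivery, 8 had a lower mean and 6 a higher one, with a median of -0.021. None of the 8 regulators of proteasome genes was called with stratum terms, with a median of -0.037. Nfe2l1 differed by 0.011 ± 0.069 and Nfe2l2 by -0.11 ± 0.062 (SE), with adjusted p-values of 0.938 and 0.323 (limma) and overlapping groups. The 4 muscle ubiquitin ligase genes, which include Trim63 and Fbxo32, had a median of 0.062 with none called.

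The tissue markers fitted a whole tongue, with muscle and epithelial genes among the highest. Acta1 averaged 17.75 in transgene tongues and 17.74 in control tongues, and Krt5 averaged 15.57 in transgene tongues and 15.67 in control tongues. Skeletal muscle markers had a median difference of 0.002 over 10 genes and oral keratinocyte markers -0.042 over 10. Fibroblast markers had a median of 0.32 over 6 genes, 2 of them with a lower mean. Endothelial markers had a median of 0.19 over 5 genes, 1 of them with a lower mean. These 2 medians were 0.006 and -0.023 in the pair of transgene 1 and control 1, and 0.452 and 0.305 in the largest stratum. With the length trend taken out they were 0.221 and 0.157. None of these 4 lists held a gene called with stratum terms. The summed linear level of the fibroblast markers ran from 97640 to 121700 in transgene libraries and from 75650 to 99600 in control libraries, and that of the endothelial markers from 10730 to 13240 in transgene libraries and from 8826 to 11220 in control libraries. Their part in the proteasome differences was not tested.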

How the data were processed

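Per the labels' protocols, RNA from whole tongue was isolated with a RNeasy plus mini kit and sequenced from TruSeq stranded mRNA libraries as single reads of 50 bases. The submitters' processing notes name TopHat2, HTSeq, DESeq2 and mm9, with no versions. Labels and headers do not state whether counting used strand. The authors deposited log2 normalised expression for 9 libraries, and a table of changed genes with log2 fold changes, their SE, a test score, p-values, adjusted p-values, a linear fold ratio and a mean normalised signal; these are quoted only as the authors' deposited values. No counts were used, so depth is unknown and no counting interval can be given.

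Genes with a mean log2 of at least 3 (14490) were tested with limma 3.58.1 in R 4.3.3 (variance trend, two-sided) with group and stratum terms and Benjamini-Hochberg adjustment. Strata were found from the values, and replicates were numbered in accession order, which pairs nothing. Transcript lengths came from GENCODE by symbol, as the longest transcript matched to a curated mRNA, and covered 99.6% of tested genes. Where no such match existed, the longest coding transcript was taken, or else the longest of any kind. The loess trend had a span of 0.3. Summed marker levels add 2 to the power of the deposited log2 value. Promoters came from RefSeq (GRCm38.p6), and no position was carried over to the files' build. The fit was tested on simulated data. The members and gene lists were chosen with earlier results of these data known. Every member is accounted for. Values in every library were printed for catalytic subunits, immunosubunits, activators, the members with the smallest and largest unadjusted p of each other role group, and those of Psma7 and B2m, like the values of Shfm1, Uchl5, Adrm1, Acta1 and Krt5, were chosen after their values were seen. Companion genes were named when called with stratum terms, or as Pomp, Psmf1, Usp14, Nfe2l1, Nfe2l2 and Tap1 in any case. One result of the ubiquitin and delivery list is not reported here. The lists were core, cap, chaperone and activator genes, cofactors, ubiquitin and delivery, regulators, class I antigen processing, muscle ubiquitin ligases, and markers of leukocytes, skeletal muscle, oral keratinocytes, fibroblasts and endothelium.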

Additional observations from a re-analysis of the deposited data

Results flagged for a closer look

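In groups of 4 or 5 libraries, the gap of the highest or lowest library to the next was set against the range of its group, over 132 groups of the members and of the other genes examined singly. With independent libraries, chance flags about 1 group in 20. That rate does not apply here, since control 4 and control 5 mirror each other about the control mean. This tie holds every control group under the limit for 5 libraries, a gap of 0.71 of the range. Only transgene groups were therefore open to a flag, and 5 were flagged. The lack of flagged control groups says nothing about the controls. Psmb10 in transgene libraries was highest in transgene 3 at 8.74, where the others lay between 8.53 and 8.56. Usp14 in transgene libraries was lowest in transgene 1 at 10.66, where the others lay between 10.70 and 10.71. Pomp in transgene libraries was lowest in transgene 4 at 10.92, where the others lay between 11.06 and 11.09. B2m in transgene libraries was highest in transgene 3 at 12.25, where the others lay between 11.66 and 11.74. Cd79a in transgene libraries, below the floor, was highest in transgene 4 at 2.20, where the others lay between 2.11 and 2.12.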

How the results depend on the processing

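The count of proteasome genes called lower was 1 with stratum terms. It was 20 with group as the only term, 0 with no floor, 0 with the length trend taken out, 5 with the trend taken out and group as the only term, and 4 in the largest stratum alone. A floor of 6, no variance trend and libraries centred on their median each gave 1. Leaving out one library at a time gave 0 to 12, with 12 without transgene 1 or without control 1 and 0 without any other. The fits without transgene 1 and without control 1 both rest on the differences of the largest stratum, and are not separate checks. The count called higher was 0 with stratum terms, and 1 (Psme4) with group as the only term. Over all tested genes, 240 were called with stratum terms, 3537 with group as the only term, 152 with no floor, 10 with the length trend taken out, 1894 with the trend taken out and group as the only term, 733 in the largest stratum alone, and 0 to 1841 with one library left out. The median difference of -0.097 was -0.001 with the length trend taken out and -0.053 in the pair of transgene 1 and control 1. A second measure of length, the longest transcript, was chosen after seeing the data. It equals the first measure for most members, so it cannot decide whether the choice of length matters. It gave a median of 0.004, 0 proteasome genes called lower (4 with group as the only term) and 10 genes called over all (1888 with group as the only term). Some differences that were not called with stratum terms over all libraries changed sign. With the length trend taken out, with or without stratum terms, these were Psma4 0.010, Psma1 0.025, Psma5 0.052, Psmb3 0.008, Psmb5 0.033, Psmb4 0.024, Psmb10 0.036, Psmc1 0.009, Psmc2 0.035, Psmd6 0.007, Psmd12 0.006, Psmd10 0.043, Psme2 0.027, Psme1 0.041, Psmg4 0.055, Psmg3 0.071, Psmg2 0.074, Psmg1 0.088, Nfe2l1 -0.042, B2m 0.147. With the longest transcript as the length they were Psma4 0.015, Psma1 0.030, Psma5 0.058, Psmb3 0.014, Psmb2 0.001, Psmb5 0.038, Psmb4 0.029, Psmb10 0.042, Psmc4 0.004, Psmc1 0.013, Psmc2 0.039, Psmd6 0.013, Psmd12 0.007, Psmd11 0.004, Psmd10 0.049, Psme2 0.031, Psme1 0.047, Psmg4 0.060, Psmg3 0.076, Psmg2 0.047, Psmg1 0.093, Nfe2l1 -0.040, B2m 0.152. In the largest stratum alone they were Psmc2 0.014, Psmd11 0.024, Psmf1 0.048, Nfe2l1 -0.067, Tap1 0.049, B2m 0.066, Acta1 -0.087, Krt5 0.018. With one library left out, the ranges that crossed 0 were Nfe2l1 -0.067 to 0.057, Psmb8 -0.10 to 0.084, Psmc2 -0.057 to 0.014, Psmd11 -0.035 to 0.024, Psmd2 -0.008 to 0.071, Psmf1 -0.037 to 0.048, Psmg1 -0.120 to 0.012, Tap1 -0.161 to 0.057, B2m -0.153 to 0.066, Acta1 -0.087 to 0.103, Krt5 -0.179 to 0.018. The cause of these changes was not tested. No paired analysis was possible because the labels carry no replicate numbers. The depth is unknown, so no limit from counting can be given.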
